A study of Mus musculus with 12 samples.

Results

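The transcripts described here are those of 7 complement genes read in macrophages: the C1q chain genes C1qa, C1qb and C1qc, the central component C3, properdin (Cfp) and the anaphylatoxin receptor genes C3ar1 and C5ar1. They were chosen by gene symbol from 55604 genes counted, and all 7 were among the 16406 genes with enough counts to be tested. RNA came from C57BL/6 mouse bone marrow-derived macrophages, cultured in M-CSF (20 ng/ml), the factor that drives macrophage growth, and used at day 7. The 12 libraries fall evenly into 3 groups: macrophages left alone, macrophages that had engulfed control corpses of B16-F10, a mouse melanoma line, and macrophages that had engulfed corpses of STC1OE B16-F10 cells, which overexpress the secreted glycoprotein STC1. Macrophages and corpses were mixed at 1 to 5 and kept for 20 h, after which loose corpses were washed off. The series describes the libraries of a condition as separate experiments. How the tumor cells were killed and how many clones carry STC1OE are not given in the sources used here.

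C1q is the recognition unit of the classical complement pathway. It is built from the A, B and C chains, which occur in equal number in the protein, and it is made largely by macrophages and dendritic cells rather than by the liver. C1q binds apoptotic cells and bridges them to phagocytes, C3 fragments mark particles for uptake, properdin stabilises the alternative pathway convertase, and C3ar1 and C5ar1 sense the small fragments C3a and C5a.

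Assigned counts ran from 28488441 to 39981074 per library, and the 7 genes had between 442 counts (C3) and 61236 counts (C3ar1) in a library. Levels are counts per 1000000 (CPM), with each library's total scaled by its TMM factor. Of 7 macrophage markers all were expressed, with a summed level of 15780 to 16670 CPM in macrophages alone, 13660 to 15350 CPM with control corpses and 13570 to 14730 CPM with STC1OE corpses. In both corpse comparisons 4 of these markers were called higher, among them Cd68 (1078, 1505 and 1749 CPM), and 3 lower, among them Lyz2, which makes up most of the sum. Of 8 melanocyte markers, leaving out Mitf, which macrophages also express, 7 were higher with control corpses, with a summed level of 9.78 to 13.0 CPM against 0.205 to 0.594 CPM in macrophages alone and 3.21 to 4.64 CPM with STC1OE corpses. Stc1 itself had 17 counts over the libraries with STC1OE corpses and 5 in each other group. The part of corpse RNA in the results was not tested. In bulk RNA, fewer cells of a type and less RNA per cell cannot be told apart.

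Among the 7 genes, C1qa was lower and Cfp was higher in macrophages with either kind of corpse. The fitted level of C1qb differed from macrophages alone by 0.868% and −1.43% with control and STC1OE corpses, and that of C1qc by 1.26% and 4.38%. C3 and the C3a receptor gene C3ar1 rose with both kinds of corpse and the C5a receptor gene C5ar1 with STC1OE corpses, all by small amounts. With control corpses 3 of the 7 were called higher and 1 lower (adjusted p below 0.05), against 19.7% of all genes called higher and 20.5% called lower. With STC1OE corpses 5 were called higher and 1 lower, against 21.4% and 22.4% of all genes. The median log2 fold changes of the 7 genes were 0.06 and 0.11, and those of all genes tested were −0.001 and −0.027. Between the corpse groups edgeR called 0 of the 7, where 5.44% of all genes were called. The libraries of macrophages alone serve both corpse comparisons, which are therefore not independent. In these comparisons the ranges of 4 genes with control corpses, 3 with STC1OE corpses and 1 between the corpse groups (Cfp) did not overlap. Among all genes 37.2%, 40.0% and 10.7% had ranges that did not overlap. C3 had an unadjusted p below 0.05 in that comparison, and DESeq2 also called none.

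**Figure D1:**
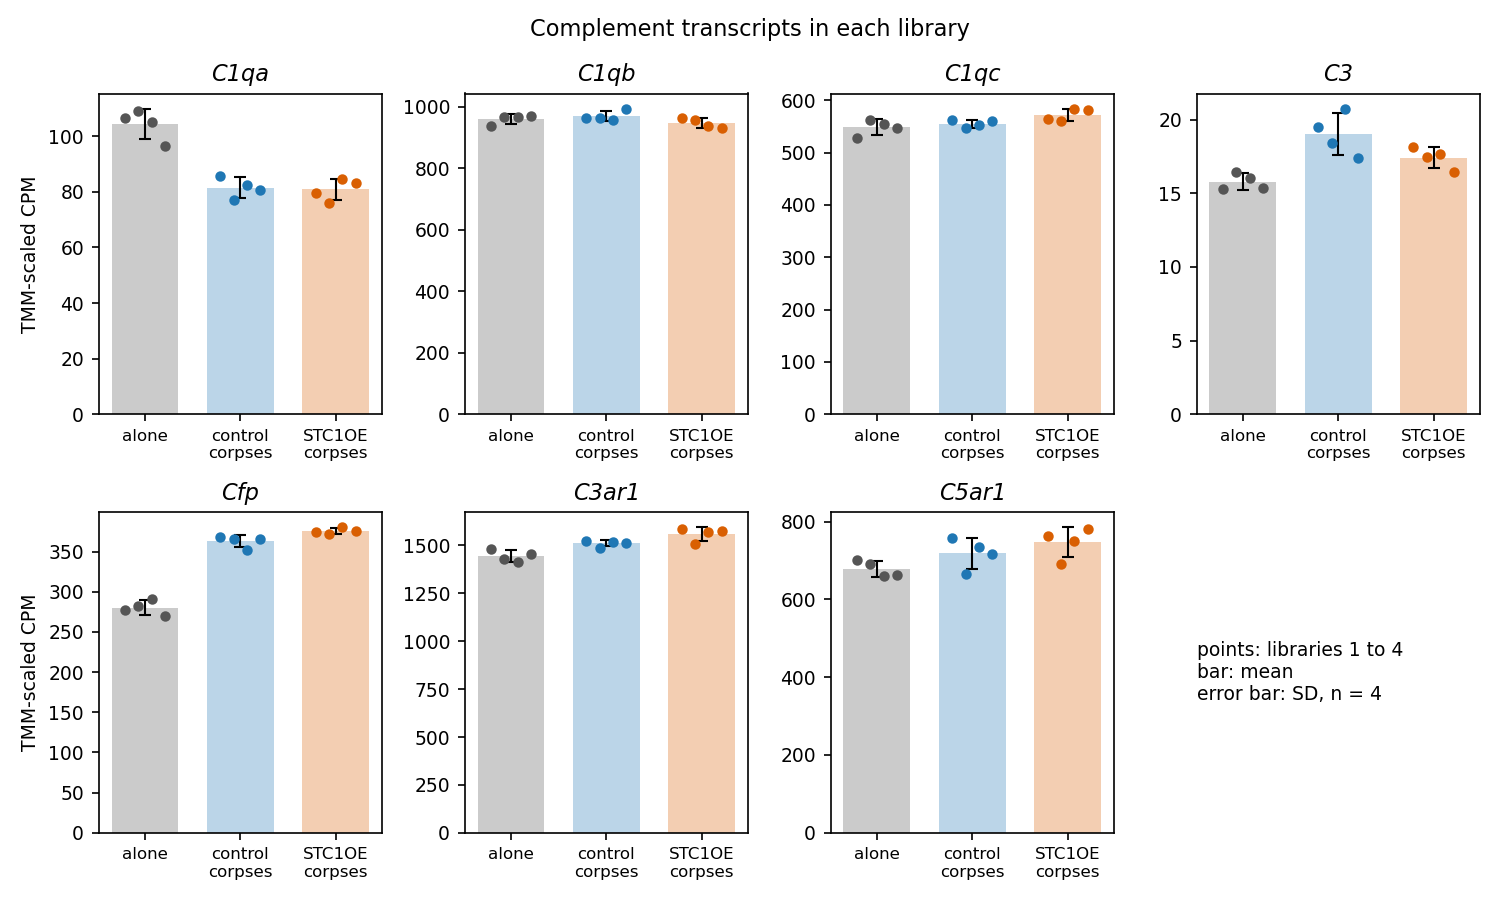
TMM-scaled CPM (y axes, starting at 0) of the 7 complement genes in macrophages alone, with control corpses and with STC1OE corpses. Points are libraries 1 to 4, bars are means and error bars are the SD (n = 4). C1qa is lower and Cfp higher in every corpse library than in any library of macrophages alone, while C1qb stays between 931 and 993 CPM throughout.

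The C1q chains were examined first. Their genes lie next to each other on the minus strand of chromosome 4 (GRCm38) within 18675 bases: C1qb (ENSMUSG00000036905.8) at 136880129 to 136886187, C1qc (ENSMUSG00000036896.5) at 136889804 to 136893065 and C1qa (ENSMUSG00000036887.5) at 136895917 to 136898803. No exon of the 7 genes shares bases with another gene of the GENCODE annotation used here for positions. Whether counting used strand, and which annotation release it used, are not known here, so overlap in that release was not checked.

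C1qa, which encodes the A chain, had 107, 109, 105 and 96.5 CPM in the 4 libraries of macrophages alone. It had 85.8, 77.0, 82.6 and 80.6 CPM with control corpses, and 79.4, 76.1, 84.5 and 83.4 CPM with STC1OE corpses. Every corpse library was therefore below every library of macrophages alone, and the corpse groups overlapped. The mean went from 104 ± 5.49 CPM to 81.5 ± 3.69 CPM with control corpses (SD, n = 4), a log2 fold change of −0.35 ± 0.04 (SE, adjusted p = 1.05e-07 by edgeR). With STC1OE corpses the mean was 80.9 ± 3.84 CPM and the log2 fold change −0.37 ± 0.04 (adjusted p = 6.06e-08 by edgeR). C1qa was the only one of the 7 genes called lower in these comparisons, and it was also called when tested against a change of 1.2-fold (adjusted p = 0.037 and 0.017 by edgeR), which 10.3% and 12.9% of all genes passed. The corpse groups differed by −0.01 on the log2 scale, with a 95% interval of −0.10 to 0.07.

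C1qb, which encodes the B chain, had 938, 968, 968 and 969.6 CPM in macrophages alone. It had 962, 964, 958 and 993 CPM with control corpses and 963, 958, 937 and 931 CPM with STC1OE corpses. All 3 groups overlapped. The log2 fold change against macrophages alone was 0.01 with control corpses (95% interval −0.04 to 0.06) and −0.02 with STC1OE corpses (−0.07 to 0.03), and neither was called. With scaling by total counts only, the second value was −0.09 and was called (adjusted p = 0.00345 by edgeR).

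C1qc, which encodes the C chain, ranged from 528 to 563 CPM in macrophages alone, from 546 to 561.5 CPM with control corpses and from 559.7 to 583 CPM with STC1OE corpses. The groups overlapped here as well. The change with control corpses was 0.02 on the log2 scale (95% interval −0.03 to 0.07). With STC1OE corpses it was 0.06 ± 0.02 (SE, adjusted p = 0.0409 by edgeR), a call that was lost without replicate 1 or 4 of macrophages alone or replicate 3 of the STC1OE group (adjusted p = 0.0874, 0.0818 and 0.0621). It was −0.01 when libraries were scaled by total counts only.

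Because the scaling of libraries cancels in a ratio of genes from the same library, the chains were also compared with each other. C1qa had 11.4, 11.3, 10.9 and 9.95 counts per 100 of C1qb in macrophages alone. The values were 8.92, 7.99, 8.62 and 8.11 with control corpses and 8.25, 7.95, 9.03 and 8.95 with STC1OE corpses, so that no corpse library reached the lowest of macrophages alone. On the log2 scale the ratio was lower by −0.37 and −0.35, and each difference reached p = 0.0286 (exact permutation test, two-sided), the minimum for this design, or 0.0429 after adjustment over the 9 ratio tests. Against C1qc, C1qa went from 19.05 ± 1.07 counts per 100 to 14.7 ± 0.538 with control and 14.1 ± 0.396 with STC1OE corpses (n = 4; exact permutation p = 0.0286 each, adjusted 0.0429). The fall of C1qa was thus as large relative to its neighbours on the chromosome as on the CPM scale. Each of these ratio calls was lost in 10 of 12 runs with 1 library left out (highest adjusted exact permutation p = 0.0514).

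The ratio of C1qb to C1qc hardly differed between macrophages alone (175 ± 2.64 counts per 100) and control corpses (175 ± 2.73; exact permutation p = 0.714, n = 4). With STC1OE corpses it was 170.4, 171.1, 160.8 and 160.1, below both other groups, whose lowest libraries were at 172.1 and 171.3. The difference from control corpses was −0.08 on the log2 scale (exact permutation p = 0.0286, adjusted 0.0429, n = 4). Libraries 3 and 4 of the STC1OE group carried most of it, and without either of them the difference was −0.06 (adjusted exact permutation p = 0.0857). The call was also lost without any 1 library of the other groups, with an adjusted exact permutation p of up to 0.171. Those libraries also had the highest shares of reads not aligned, 17.77% and 17.53%, against 14.62% and 14.40% in libraries 1 and 2 and 10.81% to 11.54% with control corpses. The part of the unaligned reads in this ratio was not tested.

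**Figure D2:**
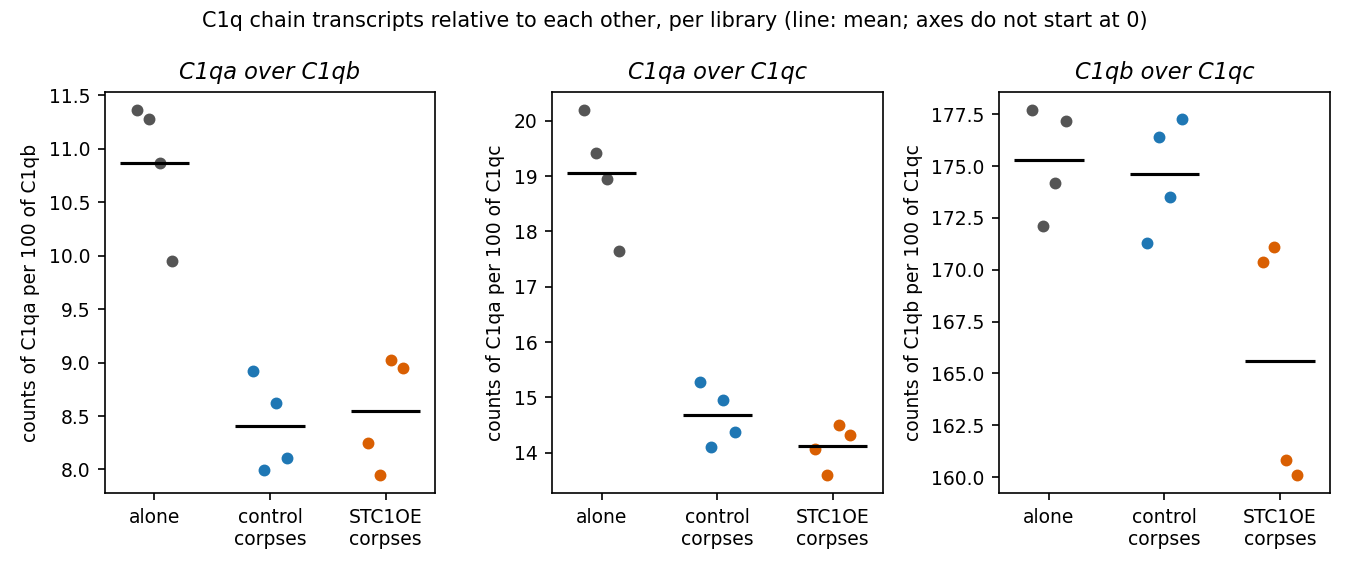
Counts of one C1q chain transcript per 100 counts of another (y axes, which do not start at 0) in each library of the 3 groups, with the mean as a line. The C1qa ratios of all corpse libraries lie below those of macrophages alone, and the C1qb to C1qc ratio is lowest, at 160.8 and 160.1, in libraries 3 and 4 with STC1OE corpses.

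The share of reads that HTSeq left as ambiguous between genes was also lower in macrophages alone (5.53% to 6.13%) than with control corpses (6.23% to 6.62%), and 5.94% to 6.24% with STC1OE corpses. Reads lost that way are not counted for any gene, and their part in the fall of C1qa was not tested.

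Per kilobase of exon the counted reads of the chains were far from equal. In macrophages alone C1qb had 883 ± 14.3, C1qc 284 ± 7.84 and C1qa 100.4 ± 5.28 CPM per kb (n = 4), so that C1qb stood 8.8-fold above C1qa. The gap was 11.4-fold with control and 11.2-fold with STC1OE corpses. Ambiguous reads are missing from these levels, and overlap in the annotation used for counting was not checked. Their part in the gap was not tested. The lengths used were 1.04 kb for C1qa, 1.09 kb for C1qb and 1.93 kb for C1qc, and they rest on merged annotated exons, so an unused exon in an annotation would shift these levels but not the comparisons between groups. Across the 7 genes the order in macrophages alone was C1qb, C3ar1 (336 CPM per kb), C1qc, C5ar1 (264), Cfp (161.5), C1qa and C3 (3.07). No neighbours in that order overlapped. With corpses the order was the same, but C1qc and C5ar1 overlapped, at 287.5 ± 3.73 and 279 ± 15.6 CPM per kb with control and 296 ± 6.01 and 290.6 ± 15.1 with STC1OE corpses.

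The promoter of C1qb is shown as that of the most abundant chain per length, which was not called in any comparison with TMM scaling. The sequence is of the 250 bases before RefSeq's start of the gene on the minus strand, chr4:136886201-136886450 (GRCm38.p6). RefSeq's start lies upstream of the GENCODE start, 136886187, and distances are counted from RefSeq's start. Capitals mark a match to the core word of PU.1, a transcription factor of macrophages (GAGGAA, 30 to 25 bases before the start), and to a word read by MAF factors (TGCTGA, 131 to 126 bases before it).
C1qb: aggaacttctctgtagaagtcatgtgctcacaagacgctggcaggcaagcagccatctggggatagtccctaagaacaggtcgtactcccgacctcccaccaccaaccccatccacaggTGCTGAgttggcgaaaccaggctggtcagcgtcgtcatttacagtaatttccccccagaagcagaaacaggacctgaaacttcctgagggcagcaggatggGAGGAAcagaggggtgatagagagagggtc
Searched on both strands, these words occur in 23.3% and 16.1% of 32851 promoter windows of the same length, so that such a match is common. Of the 6 members with a window, the PU.1 word was in 2 (C1qb and C1qc) and the MAF word in 4 (C1qb, C3, C3ar1 and C5ar1).

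C3, whose fragments opsonise particles, is at chromosome 17, 57203970 to 57228136 (ENSMUSG00000024164.15). It was the least abundant of the 7 genes, at 15.3, 16.5, 16.1 and 15.4 CPM in macrophages alone. With control corpses it had 19.5, 18.4, 20.7 and 17.4 CPM, all above macrophages alone, and with STC1OE corpses 18.1, 17.4, 17.65 and 16.4 CPM, where the lowest library overlapped with macrophages alone. C3 rose by 0.27 ± 0.05 on the log2 scale with control corpses (SE, adjusted p = 0.000136 by edgeR). The rise with STC1OE corpses was 0.14 ± 0.06 (adjusted p = 0.0373 by edgeR), and leaving out any of 5 single libraries (replicates 1, 3 and 4 of macrophages alone, 1 and 3 of the STC1OE group) ended the call (highest adjusted p = 0.0977). The corpse groups differed by −0.13 (95% interval −0.24 to −0.02), which was not called after adjustment (adjusted p = 0.172). With scaling by total counts only, that difference was −0.18 and was called (adjusted p = 0.0498 by edgeR), and the rise with STC1OE corpses was 0.07 without a call (adjusted p = 0.346).

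Cfp encodes properdin, the positive regulator of the alternative pathway, and lies on the X chromosome at 20925454 to 20931555 (ENSMUSG00000001128.7). Its level was 277, 282, 291.5 and 270.4 CPM in macrophages alone, 368.5, 366, 352 and 365.5 CPM with control corpses, and 375, 372, 380.4 and 375 CPM with STC1OE corpses. The corpse libraries were all above those of macrophages alone. The mean went from 280.3 ± 8.94 CPM to 363 ± 7.21 CPM with control corpses (SD, n = 4), a log2 fold change of 0.37 ± 0.03 (SE, adjusted p = 1.61e-13 by edgeR). With STC1OE corpses it was 376 ± 3.45 CPM, with a log2 fold change of 0.42 ± 0.03 (adjusted p = 6.7e-15 by edgeR). All 4 STC1OE libraries lay above all 4 control corpse libraries, but the difference of 0.05 was not called (adjusted p = 0.274).

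The promoters of these genes, which were higher with control corpses, are given for comparison, again as RefSeq's 250 bases before the start on the minus strand (GRCm38.p6). In C3 (chr17:57228137-57228386) capitals mark a C/EBP word (TTNNGCAA, here on the opposite strand, 45 to 38 bases before the start), which 9.56% of windows hold, and the MAF word, 182 to 177 bases before it on the same opposite strand. The window of Cfp (chrX:20931556-20931805) had no match to any of the 5 words searched, the other 2 being an AP-1 word (TGANTCA, in 6.75% of windows, and in that of C3ar1) and an interferon-stimulated response element (GAAA, any 2 bases, GAAA, in 2.98% of windows and in none of the members).
C3: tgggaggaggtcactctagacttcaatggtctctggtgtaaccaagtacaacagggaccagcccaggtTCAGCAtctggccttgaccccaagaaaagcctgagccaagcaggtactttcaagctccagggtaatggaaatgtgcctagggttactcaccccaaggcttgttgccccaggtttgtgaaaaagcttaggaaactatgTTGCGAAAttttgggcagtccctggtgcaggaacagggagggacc
Cfp: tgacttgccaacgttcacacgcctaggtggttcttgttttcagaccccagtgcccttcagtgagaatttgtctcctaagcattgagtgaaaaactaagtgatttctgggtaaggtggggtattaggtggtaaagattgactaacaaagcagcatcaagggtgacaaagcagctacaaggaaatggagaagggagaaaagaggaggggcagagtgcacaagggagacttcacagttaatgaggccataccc
These matches describe letters only, and binding of any factor was not measured.

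C3ar1, the receptor of C3a (chromosome 6, 122847138 to 122856161, ENSMUSG00000040552.8), was abundant. It had 1484, 1429, 1413 and 1454 CPM in macrophages alone, 1523, 1489, 1520.0 and 1511 CPM with control corpses, and 1586, 1508, 1571 and 1574 CPM with STC1OE corpses. Both corpse groups lay above macrophages alone without overlap. The rises were small, at 0.06 ± 0.02 with control corpses (adjusted p = 0.0313 by edgeR) and 0.11 ± 0.02 with STC1OE corpses on the log2 scale (adjusted p = 0.000318 by edgeR). The first was lost without any of 5 libraries (replicates 2, 3 and 4 of macrophages alone, 1 and 4 of the control corpse group; highest adjusted p = 0.126), and with scaling by total counts only both were 0.04 and neither was called.

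C5ar1, the receptor of C5a (chromosome 7, 16246743 to 16259540, ENSMUSG00000049130.6), had 700.1, 692, 659.6 and 664 CPM in macrophages alone. With control corpses it had 758, 664, 734 and 716 CPM, and with STC1OE corpses 762, 692, 751 and 782 CPM. Replicate 2 was the lowest in both corpse groups and overlapped with macrophages alone. C5ar1 rose by 0.14 ± 0.04 on the log2 scale with STC1OE corpses (adjusted p = 0.0136 by edgeR), but by 0.06 without a call when scaled by total counts only. The value with control corpses was 0.08 ± 0.04 (adjusted p = 0.138), and without replicate 2 of that group it was 0.13 (adjusted p = 0.00314 by edgeR). Without replicate 2 of the STC1OE group the control corpse value was 0.09 and was called as well (adjusted p = 0.0181 by edgeR).

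Neutrophils express C5ar1 and Cfp too. Of 10 neutrophil markers, 5 were tested and all 5 were lower with either kind of corpse, with a summed level of 15.3 to 17.3 CPM in macrophages alone, 3.86 to 5.13 CPM with control corpses and 4.31 to 5.28 CPM with STC1OE corpses, and Ly6g had 0 counts in all libraries. The part of such cells in the values of Cfp and C5ar1 was not tested.

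**Figure D3:**
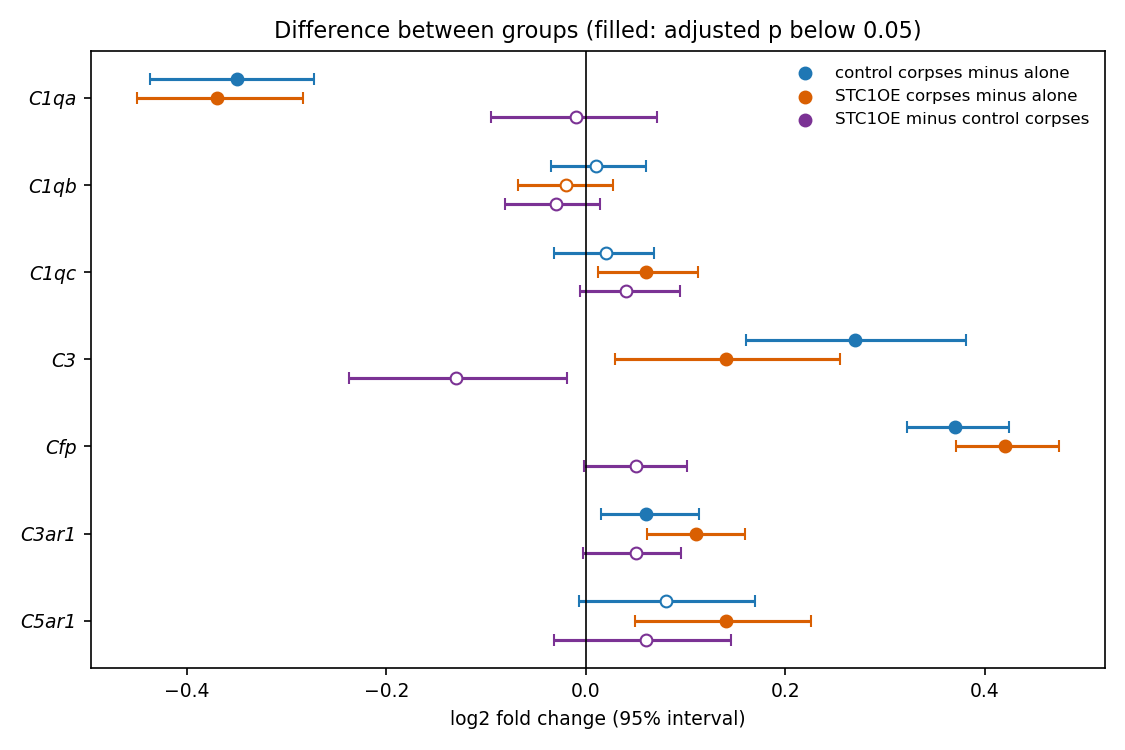
Log2 fold changes (x axis) with their 95% intervals for the 7 complement genes in 3 comparisons: control corpses minus alone, STC1OE corpses minus alone, and STC1OE minus control corpses. Filled points had an adjusted p below 0.05 by edgeR. C1qa lies at −0.35 and −0.37 and Cfp at 0.37 and 0.42 against macrophages alone, and no point of the comparison between corpse groups is filled.

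Across the 12 libraries, the log2 CPM of C3ar1 and C5ar1 moved together (Pearson r = 0.864), while C1qa and Cfp moved apart (r = −0.907). The chains C1qb and C1qc had r = −0.191, C1qa and C1qc −0.368, and C1qa and C1qb −0.0392. These correlations are over 12 libraries that share 3 groups and are given as a description. The genes whose log2 CPM was most like that of a member, out of 7748 coding genes at 10 CPM or more, also followed the groups. For Cfp they were Surf4 (r = 0.993), Rpn1 (0.992) and Ctsz (0.991), and Ctsz went from 904.5 CPM in macrophages alone to 1373 and 1478 CPM with control and STC1OE corpses. For the mean of the C1q chains they were Slc25a17 (0.984), Usp6nl (0.978) and Rps9 (0.968). These genes had lower means with both kinds of corpse (Slc25a17 24.2, 21.9 and 21.75 CPM). Of the chains only C1qa was called lower with TMM scaling, so the pattern of their mean does not stand for C1qb or C1qc. For C3 they were Tra2b (0.923), Jagn1 (0.919) and Xaf1 (0.908), for C3ar1 Zmpste24 (0.977), Prkx (0.968) and Eprs (0.961), and for C5ar1 Erc1 (0.964), Hmga1 (0.962) and Pole4 (0.95).

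The rest of the complement system was taken from a list of 51 genes, of which 21 could be tested and 30 were too low, with at most 0.336 CPM in any library and 0 counts throughout for 10 of them. The untested genes include C1s1, C4b, Cfb, Cfd, the C5 gene Hc and most terminal components. Of the 21, 5 were called higher and 6 lower with control corpses, and again 5 and 6 with STC1OE corpses, beside the same shares of all genes as above. Their median log2 fold changes were 0.04 and −0.09. Between the corpse groups 1 was called, higher with STC1OE corpses, as were 3.33% of all genes.

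The integrin receptors for C3 fragments fell. Itgam, the alpha chain of complement receptor CR3, had 139.9 to 149.9 CPM in macrophages alone, 104.8 to 107 CPM with control corpses and 104 to 114 CPM with STC1OE corpses (log2 fold changes −0.46 ± 0.03 and −0.43 ± 0.03). Itgax, the alpha chain of CR4, was at 326 ± 7.61, 226 ± 5.39 and 238 ± 6.1 CPM (−0.53 ± 0.03 and −0.46 ± 0.03). Their shared beta chain Itgb2 was at 1210.0 ± 15.9, 998.5 ± 19.6 and 1045 ± 19.6 CPM, with log2 fold changes of −0.28 ± 0.02 and −0.21 ± 0.02. The corpse libraries of these integrins were all below those of macrophages alone, and each had an adjusted p of at most 8.39e-09 by edgeR. Vsig4, another receptor for C3 fragments, was under 1 CPM in every group and was not called. Neutrophils also express Itgam and Itgb2, and their markers, given above, were lower in the same libraries. Dendritic cells also express Itgax: of 6 of their markers 3 were tested and 1 was lower, with a summed level of 1.92 to 2.28 CPM in macrophages alone, 1.49 to 1.82 CPM with control and 1.72 to 1.91 CPM with STC1OE corpses. The part of either cell type in the integrin values was not tested.

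C5ar2, the second C5a receptor, which couples poorly to G proteins, fell by 0.24 and 0.22 on the log2 scale from 24.2 ± 0.989 CPM (adjusted p = 0.000128 and 0.000494 by edgeR). Its values in every corpse library, at most 21.7 CPM, were below the lowest of macrophages alone, 23.3 CPM. C5ar1 had positive log2 fold changes, 0.08 without a call with control corpses and 0.14 with STC1OE corpses. Its ranges overlapped with macrophages alone in both comparisons.

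The membrane inhibitors of complement Cr1l, Cd46 and Cd59a were not called, with Cr1l at 59.8, 63.0 and 62.4 CPM.

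Proteins reported to bind C1q on cells went both ways. Calr, calreticulin, a chaperone that C1q can bind on dying cells, rose from 873 ± 21.6 CPM to 1790 ± 22.4 and 1959 ± 23.4 CPM (log2 fold changes 1.04 ± 0.02 and 1.17 ± 0.02). It was the complement gene outside the 7 that differed between the corpse groups (0.13 ± 0.02, adjusted p = 0.000851 by edgeR). C1qbp, mainly a mitochondrial protein, rose from 45.9 ± 0.28 CPM to 59.5 ± 3.07 and 61.7 ± 1.56 CPM, and Cd93, a surface lectin-like receptor, from 673 ± 13.3 CPM to 764 ± 22.6 and 803 ± 15.8 CPM. Lrp1, an endocytic receptor that partners with calreticulin, fell by 0.12 and 0.09, and the second call was lost without replicate 1 or 3 of the STC1OE group (adjusted p = 0.0773 and 0.0965 by edgeR).

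C1rl, a protease-like relative of C1r, rose from 1.52 ± 0.227 CPM to 2.62 ± 0.185 and 3.13 ± 0.216 CPM (log2 fold changes 0.78 ± 0.13 and 1.03 ± 0.13). C1ra, the C1r protease itself, was at 2.78, 3.39 and 3.35 CPM and was not called. The called genes below 1 CPM were Masp1, which was higher, and C4a, which was lower. C4a shares near-identical sequence with C4b, and reads aligned to both would be among the multiply aligned reads, which were left out. Masp1 lost its call without replicate 2 or 3 of macrophages alone with control corpses, and without replicate 3 of macrophages alone or 4 of the STC1OE group with STC1OE corpses (highest adjusted p = 0.082 by edgeR). C4a lost it with control corpses without any of 5 libraries (replicates 1, 3 and 4 of macrophages alone, 1 and 2 of the control corpse group; highest adjusted p = 0.146).

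**Figure D4:**
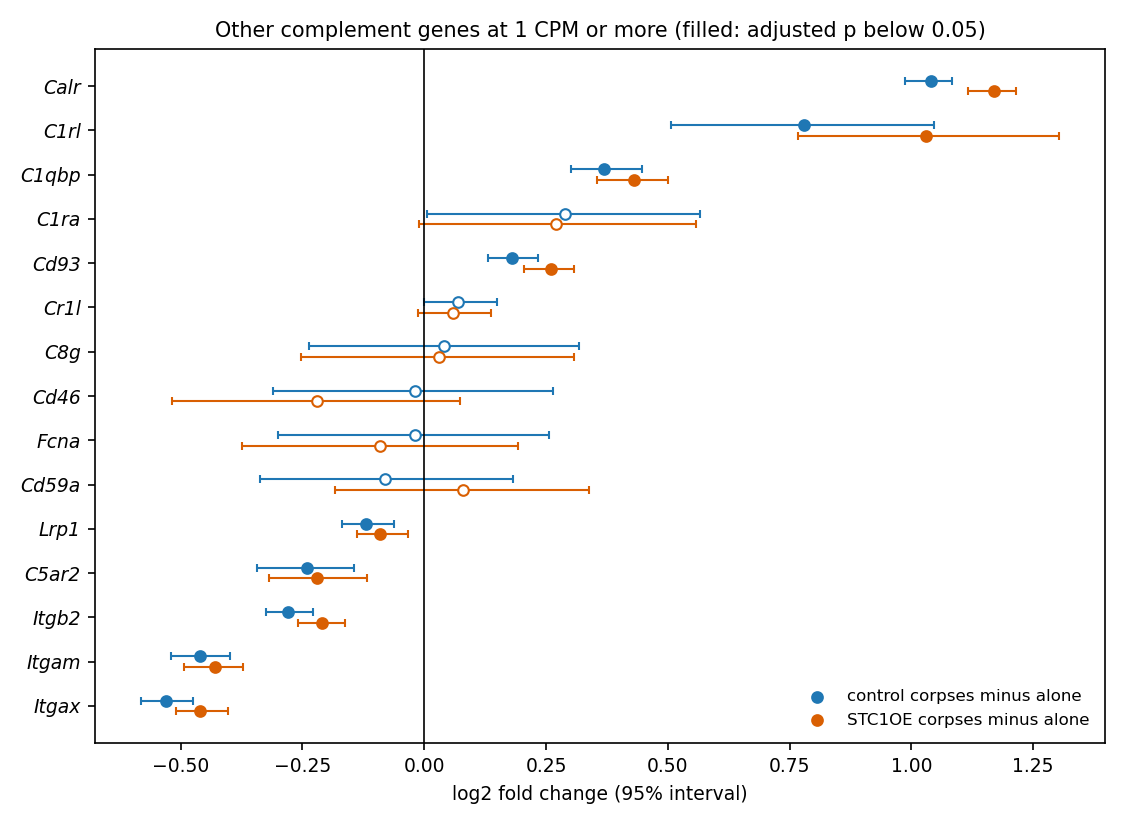
Log2 fold changes (x axis) with 95% intervals against macrophages alone for the 15 other complement genes tested with a mean of at least 1 CPM, with control corpses and with STC1OE corpses. Filled points had an adjusted p below 0.05 by edgeR. Calr, C1rl, C1qbp and Cd93 lie above 0 and Lrp1, C5ar2, Itgb2, Itgam and Itgax below it in both comparisons, which share the 4 libraries of macrophages alone.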

How the data were processed

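Each library has its own deposited file of raw, unnormalized read counts for every gene. The authors named HISAT2, HTSeq and DESeq2 and the builds mm10 and GRCm38, per the submitters' processing notes. Strand use and annotation release are not given in the sources used here. Reads without a gene were left out. Those with no feature, ambiguous, of low quality, unaligned and multiply aligned made up at most 14.69%, 6.62%, 5.85%, 17.77% and 7.03% of reads. Symbols were matched by identifier without version (54723 of 55604); positions and exon lengths are those of GENCODE on GRCm38. Tests used edgeR 4.0.16 under R 4.3.3 (filterByExpr, minimum count 10 and total 15, TMM, robust quasi-likelihood fits on all 12 libraries, two-sided, Benjamini-Hochberg over 16406 genes). Chain ratios used exact permutation tests. The fit was also run on counts simulated from its own model and dispersions, with changes in the control corpse group only. Such a run cannot show whether the model fits these libraries.

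The members, lists and alternatives were chosen with earlier results of these data known. Named were the 7 members, called genes of the complement list at 1 CPM or more, and the 3 genes most correlated with each member pattern. Vsig4, Masp1, C4a and the complement genes named as not called or untested fall outside that rule, having been picked with their values in view. A gene of that list is not reported here and is not in its counts. Replicates differed by more than sampling noise (chi-square per degree of freedom 2.73 to 17.1). In macrophages alone, replicates 1 and 2 gave 3.12 and 3 and 4 gave 2.88, against 6 to 13.5 for the other pairs. With STC1OE corpses these values were 4.26 and 2.81, against 11.2 to 17.1. With control corpses they were 7.03 and 2.73, against 5.46 to 9.11. The exact permutation tests treat libraries as independent, and the part of this likeness in their results was not tested. Alternatives were RLE, upper-quartile and total-count scaling, a fit to the groups compared only, a replicate block, dropping each library in turn, only libraries 1 and 2 or 3 and 4, a 1.2-fold threshold, DESeq2 1.42.0, unfiltered genes and, for ratios, counts + 1. A count of 0 allows up to 0.105 CPM in the library of lowest depth (3 counts, counting error only).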

Additional observations from a re-analysis of the deposited data

Results flagged for a closer look

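C1qb in macrophages alone was lowest in replicate 1, at 938 CPM, far from the other 3 libraries, of which the lowest was at 968 CPM; the gap was 0.954 of the group's range, above Dixon's 95% critical value. With control corpses replicate 4 was highest, at 993 CPM, with the next at 964 CPM and a gap of 0.838 of the range. These are 2 of 21 groups checked, where chance flags about 1 in 20, and in both cases the whole range was small beside the level.

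The log2 ratio of C1qb to C1qc counts differed between the corpse groups by −0.08 (STC1OE minus control corpses; exact permutation p = 0.0286, adjusted 0.0429, n = 4), with the ratio lower in 4 of 4 STC1OE libraries than in any control corpse library.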

How the results depend on the processing

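The calls of C1qa (lower) and Cfp (higher) against macrophages alone held in each of 22 alternative settings, which gave 88 values over both genes and comparisons. These settings reuse the same libraries and are not independent. C1qa ranged from −0.40 to −0.31 with control and −0.47 to −0.26 with STC1OE corpses, and Cfp from 0.35 to 0.40 and from 0.35 to 0.44. Of 374 alternative values of the other members or comparisons 332 kept their side of the threshold. C1qc with STC1OE corpses turned to −0.01 with total-count scaling. The number of members higher with STC1OE corpses, 5, was 1 against 1.2-fold, 3 with upper-quartile scaling, 1 with total-count scaling (2 lower, with C1qb beside C1qa) and 1 with libraries 1 and 2 only; with control corpses, 3 became 1 against 1.2-fold. Between the corpse groups 1 member was higher with libraries 3 and 4 only and 1 (C3) lower with total-count scaling. Total-count scaling lowered all log2 fold changes by a median of 0.074 with STC1OE corpses, and 2385 genes were then higher and 5112 lower in place of 3510 and 3676; between the corpse groups it gave 185 and 913, and DESeq2 768 and 265, in place of 546 and 347. The other causes were not tested.

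Against 1.2-fold the other complement genes called went from 5 and 6 to 3 and 2 with control corpses, to 3 and 3 with STC1OE corpses, and from 1 to 0 between the corpse groups. That 1 became 2 with the replicate block, 0 with libraries 1 and 2, 2 (and 1 lower) with libraries 3 and 4, and 4 with DESeq2. Same-numbered libraries of different groups had weak correlations of their deviations (−0.0434 to 0.0912). In 10 of 24 comparisons a library was best correlated with its own number among 4 candidates. The replicate block changed no call of a member. Between the corpse groups it called 677 genes higher and 412 lower, in place of 546 and 347. These values do not settle whether replicate numbers pair the libraries.

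With each library left out, members called higher ranged from 2 to 4 with control and 3 to 5 with STC1OE corpses. The ratio of C1qa to C1qb ranged from −0.41 to −0.35 and −0.39 to −0.31, that of C1qa to C1qc from −0.41 to −0.35 and −0.47 to −0.40, and that of C1qb to C1qc from −0.10 to −0.07 and, between the corpse groups, −0.09 to −0.06. For the C1qa ratios against macrophages alone the exact permutation p stayed at 0.0286, the smallest possible. The adjusted p rose to 0.0514 because fewer of the 9 tests reached that p, and each call was lost in 10 of 12 runs.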
